A study of Mus musculus with 12 samples.

Results

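The 10 genes described here are linked to cholesterol export from macrophages, to cholesterol handling inside them, or to the liver X receptors (LXRs). They are the receptor genes *Nr1h2* and *Nr1h3*, the exporter genes *Abca1*, *Abcg1* and *Abca5*, the apolipoprotein gene *Apoe*, the lysosomal genes *Npc1* and *Npc2*, and the enzyme genes *Lpcat3* and *Nceh1*. They were chosen by name for their known roles, with earlier results of these data known. All 10 were among the 12960 genes counted and among the 10822 genes that passed the filter on low counts. Bone marrow-derived macrophages (BMDMs), cells grown from mouse marrow with L929 medium as the source of M-CSF, came from WT mice or from AMPKβ1-/- mice, which lack this AMPK subunit in the whole body. Each genotype was given vehicle (DMSO at 0.1%) or PF-06409577 (PF), an activator of AMPK complexes that contain β1, at 10 μM, and RNA was sequenced after 6 h. Each of the 4 groups (WT vehicle, WT PF, AMPKβ1-/- vehicle, AMPKβ1-/- PF) had 3 libraries. All groups had the same culture method and treatment time, the DMSO content of the PF groups is not given, and the labels name no cholesterol loading. The age of the marrow donors for these cells was not given in the sources used here.

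LXRα and LXRβ are nuclear receptors that bind oxidised cholesterol and pair with RXR on DNA. They switch on genes for cholesterol export when a macrophage holds excess sterol. Cholesterol taken up with lipoproteins leaves the lysosome through NPC2 and NPC1, is stored as ester or released from it by hydrolases, and crosses the plasma membrane through ABCA1 to lipid-poor apolipoproteins or through ABCG1 to HDL. In plaques of arteries, macrophages with impaired export become foam cells.

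The 12 libraries held 8935609 to 14358180 counts assigned to genes, and normalized counts (CPM, a gene's count as a share of its library) below use library sizes after TMM scaling in edgeR (factors of 0.881 to 1.09). Macrophage markers summed to between 25970 and 30760 CPM in every library, with 10 of 10 detected. Markers of granulocytes summed to 0.424 to 1.39 CPM and of dendritic cells to 0.372 to 1.37 CPM. Fibroblast markers reached 8.66 CPM in AMPKβ1-/- vehicle library 1 and lay between 0.923 and 2.76 CPM elsewhere, and osteoclast markers summed to 96.0 to 128 CPM. Lymphoid markers, of which 3 of 9 were in the table, summed to 13.9 to 15.8 CPM in WT and 6.47 to 7.74 CPM in AMPKβ1-/- libraries, nearly all of it *Cd4*, while the T cell marker *Cd3d* was at 0 to 0.19 CPM in every library. *Prkab1*, the gene of AMPKβ1, lay between 37.3 and 45.3 CPM in WT libraries and between 6.05 and 9.42 CPM in AMPKβ1-/- libraries, a log2 difference of −2.58 (SE 0.12, adjusted p = 8.9e-09) with vehicle. In bulk RNA, fewer cells of a type and less RNA per cell cannot be told apart. The labels do not say that the libraries of a group came from separate mice or cultures. The p-values therefore judge group differences against the spread between these libraries, which may be technical.

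The promoters of *Abca1* and *Nceh1* are shown because *Abca1* is the best known LXR target of the set and *Nceh1* had the smallest p of the 10 genes for the response to PF in WT cells. Sequences are from RefSeq on GRCm38.p6, from 250 bases before to 50 bases after the RefSeq start site of a gene, and 8 of the 10 genes were matched, with 11 promoters between them. Capitals mark the 6-base sequence CACGTG, an E-box that reads the same on both strands and is bound by basic helix-loop-helix factors, and in *Abca1* also the best match to the LXR element, AGGTCA repeated in the same direction after a gap of 4 bases. The *Abca1* promoter lies at chr4:53159846-53160145 on the minus strand and the *Nceh1* promoter at chr3:27182754-27183053 on the plus strand.
Abca1: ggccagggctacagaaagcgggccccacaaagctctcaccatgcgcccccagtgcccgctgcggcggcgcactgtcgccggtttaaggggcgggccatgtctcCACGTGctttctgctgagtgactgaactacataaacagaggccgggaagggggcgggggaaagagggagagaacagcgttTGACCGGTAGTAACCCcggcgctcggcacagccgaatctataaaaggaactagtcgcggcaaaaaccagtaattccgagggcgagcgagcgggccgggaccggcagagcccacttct
Nceh1: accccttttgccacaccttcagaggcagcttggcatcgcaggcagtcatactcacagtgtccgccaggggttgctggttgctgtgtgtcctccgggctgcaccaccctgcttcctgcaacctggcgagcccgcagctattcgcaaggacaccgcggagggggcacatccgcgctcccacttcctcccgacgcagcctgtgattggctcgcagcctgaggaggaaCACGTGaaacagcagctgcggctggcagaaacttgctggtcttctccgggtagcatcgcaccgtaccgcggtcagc

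CACGTG was present once in *Abca1*, at −147 from the RefSeq start site (53159895), and once in *Nceh1*, at −26 from its RefSeq start site (27183004), which lies inside the GENCODE gene, and in none of the other 6 matched genes. Of 32851 promoters of this length, 7.15% held it. The 16-base stretch in capitals in *Abca1*, at −67 and on the strand opposite to the gene, differed from the LXR element at 3 of its 12 defined bases and overlapped no CACGTG. As many as 21.9% of all promoters held a match with at most 3 differences, a limit set after the sequences had been seen. The best match in the other genes had 4 or 5 differences. A complete AGGTCA was found on either strand in 16.3% of all promoters and in 0 of the 11 promoters of these genes. These are descriptions of the letters in a short window and say nothing about binding.

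Relative to the length of the longest transcript, *Apoe* was the most abundant of the 10 genes in WT vehicle cells, at 3696 CPM per kb. *Npc2* followed at 757 CPM per kb, *Nr1h2* at 105 and *Npc1* at 93.7. The libraries of *Nr1h2* and *Npc1* overlapped on this scale. *Nceh1* (48.1 CPM per kb) overlapped with *Nr1h3* (42.5), and *Lpcat3* (35.3) overlapped with *Abcg1* (34.1). *Abca1* was lower, at 6.97 CPM per kb, and *Abca5* lowest, at 0.0743 CPM per kb. LXRβ transcripts exceeded LXRα transcripts per length in every WT vehicle library.

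PF was compared with vehicle in WT cells to describe the response of these genes to activation of AMPK. *Nceh1* and *Abca5* rose and *Nr1h3*, *Nr1h2* and *Apoe* fell, which is 5 of the 10 genes at an adjusted p below 0.05 (edgeR's quasi-likelihood test, Benjamini-Hochberg over 10822 genes). Over all tested genes 15.9% passed in this comparison, 6.99% higher and 8.95% lower. The median log2 fold change was −0.047 for the 10 genes and 0.0048 for all tested genes. Libraries with PF were entirely above or below those with vehicle for the same 5 genes, and for 32.2% of all tested genes. Of the 5, *Abca5* alone also had a log2 fold change beyond 0.8 in either direction, as did 1.52% of all genes. *Nceh1* and *Nr1h3* passed under each of 20 alternative settings. The count fell to 2 genes, *Nceh1* and *Nr1h3*, without WT vehicle library 1, WT vehicle library 3 or WT PF library 3, and to 3, these and *Abca5*, without WT PF library 2.

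The same comparison in AMPKβ1-/- cells called 0 of the 10 genes with edgeR, 0 at an unadjusted p below 0.05, and 0 with DESeq2 or limma-voom. Over all tested genes 0.0554% passed the adjusted threshold and 4.98% the unadjusted one, so 0 of 10 is near the share of all genes. PF and vehicle libraries of AMPKβ1-/- cells overlapped for all 10 genes, while they did not for 14.5% of all tested genes. The median log2 fold change of the 10 genes was 0.027, against −0.0040 for all tested genes. The difference between the responses of the genotypes (WT minus AMPKβ1-/-) is the test of whether they were unlike. It called 0 of the 10 genes, and 0.416% of all tested genes, at an adjusted p below 0.05 with edgeR. At an unadjusted p below 0.05 it marked 4, *Nceh1*, *Nr1h3*, *Abca5* and *Abca1*, against 14.3% of all tested genes at that threshold. DESeq2 called *Nceh1* alone and limma-voom called 0.

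**Figure D1:**
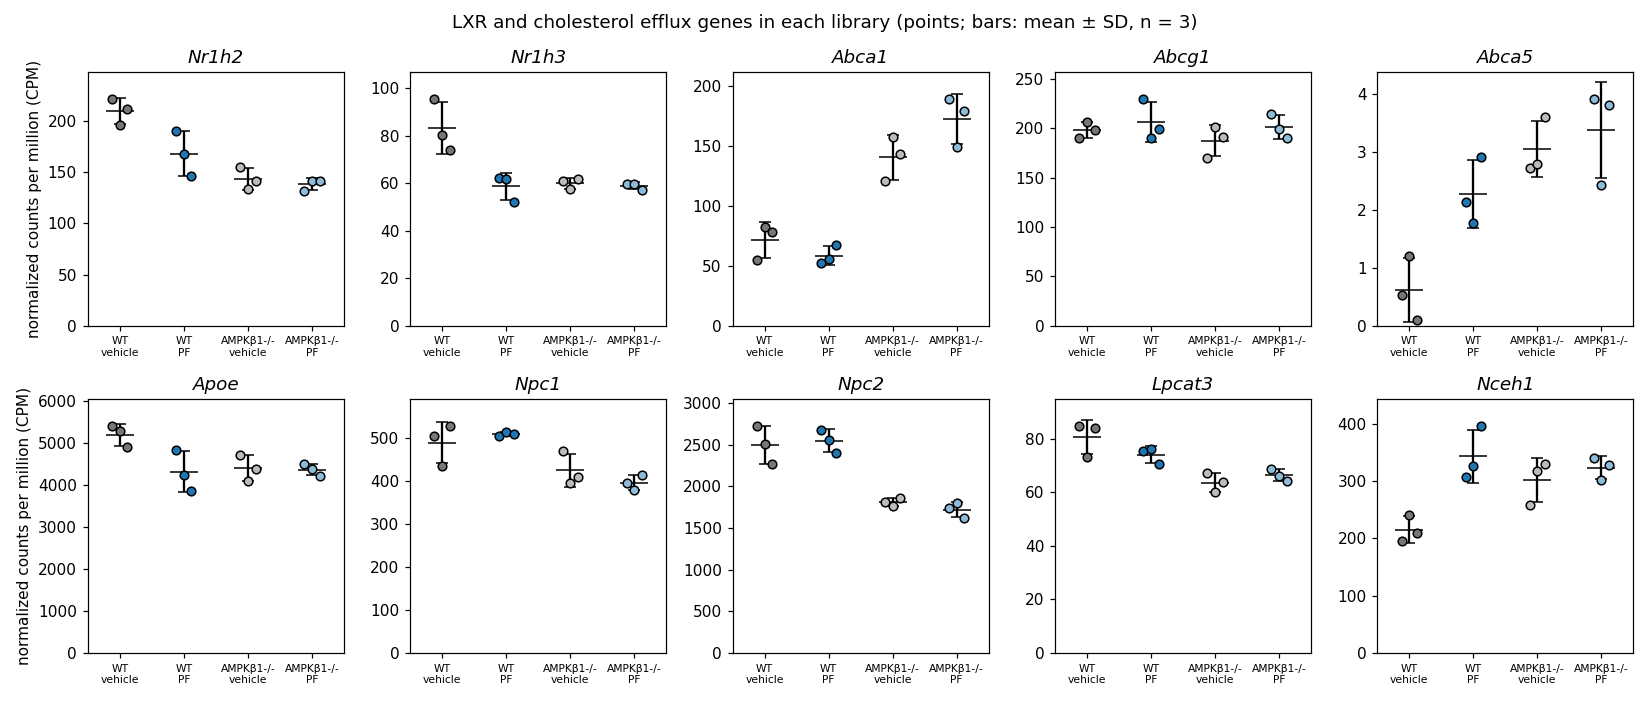
CPM of each of the 10 genes (vertical axes, from 0) in the 12 libraries, in 4 groups along the horizontal axis. Points are libraries and bars are means ± SD of 3 libraries. *Abca1* lay at 120.5 CPM and above in AMPKβ1-/- cells and at 81.9 CPM and below in WT cells, and *Nceh1* was lowest in WT vehicle cells.

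*Nr1h3*, on GRCm38 chromosome 2 from 91184061 to 91202834, encodes LXRα, the receptor form that is abundant in macrophages and liver. It was measured at 95.4, 80.2 and 73.9 CPM in WT vehicle libraries 1 to 3 and at 62.3, 61.8 and 52.0 CPM in WT PF libraries. In AMPKβ1-/- cells it was at 60.7, 57.4 and 61.7 CPM with vehicle and at 59.8, 59.7 and 57.1 CPM with PF. The WT vehicle libraries were above all others, and the remaining 3 groups overlapped. *Nr1h3* fell with PF in WT cells by 0.50 on the log2 scale (SE 0.10, adjusted p = 0.00626). The log2 fold change with PF in AMPKβ1-/- cells was −0.03 (SE 0.10, adjusted p = 0.99), and the difference between the responses was −0.48 (SE 0.14, adjusted p = 0.15). AMPKβ1-/- cells had less *Nr1h3* than WT cells with vehicle, with a log2 difference of −0.47 (SE 0.10, adjusted p = 0.000976). It shares 34 exonic bases with *Gm13783* on the same strand.

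*Nr1h2*, on chromosome 7 from 44549616 to 44553951, encodes LXRβ, which is made in most tissues. WT vehicle libraries had 221, 196 and 211 CPM and WT PF libraries 189.7, 167 and 146 CPM. AMPKβ1-/- libraries had 155, 134 and 141 CPM with vehicle and 131, 141 and 141 CPM with PF. WT vehicle libraries were highest, and WT PF library 3 lay within the range of AMPKβ1-/- vehicle. *Nr1h2* fell by 0.32 with PF in WT cells (log2, SE 0.09, adjusted p = 0.0327), and its log2 fold change in AMPKβ1-/- cells was −0.05 (SE 0.09, adjusted p = 0.98). The responses differed by −0.27 (SE 0.13, adjusted p = 0.37). With vehicle, AMPKβ1-/- cells had 0.683 times the level of WT cells, a log2 difference of −0.55 (SE 0.09, adjusted p = 0.000238). The fall with PF in WT cells lost its call in 7 of 20 settings, with an adjusted p of 0.111 without WT vehicle library 1, 0.0803 without WT vehicle library 3, 0.0937 without WT PF library 2 and 0.176 without WT PF library 3, within 0.00569 to 0.485 over all alternatives.

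*Abca1*, on chromosome 4 from 53030787 to 53159895, encodes the exporter that loads cholesterol and phospholipid onto apolipoprotein A-I. It had 54.6, 81.9 and 77.9 CPM in WT vehicle libraries and 52.6, 55.7 and 67.1 CPM in WT PF libraries. AMPKβ1-/- libraries had 120.5, 157 and 143 CPM with vehicle and 189, 149 and 179 CPM with PF. Every AMPKβ1-/- library was above every WT library, whereas PF and vehicle overlapped within each genotype. The log2 difference between AMPKβ1-/- and WT vehicle cells was 0.97 (SE 0.15, adjusted p = 0.000211), a 1.96-fold higher level in AMPKβ1-/- cells. Mean *Abca1* with PF was 2.94 times as high in AMPKβ1-/- as in WT libraries, a contrast given without a test. The log2 fold change with PF was −0.29 in WT cells (SE 0.16, adjusted p = 0.195) and 0.29 in AMPKβ1-/- cells (SE 0.15, adjusted p = 0.98). These opposite signs differed by −0.58 (SE 0.21, adjusted p = 0.25).

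*Abcg1*, on chromosome 17 from 31057675 to 31117988, encodes an exporter of cholesterol to HDL and is, like *Abca1*, an LXR target. It stayed between 170.3 and 229.7 CPM in all 12 libraries, and the 4 groups overlapped. Group means were 199 ± 8.18 CPM in WT vehicle, 206 ± 20.6 in WT PF, 188 ± 15.8 in AMPKβ1-/- vehicle and 201 ± 12.2 in AMPKβ1-/- PF cells (SD, n = 3). No comparison called it, with log2 fold changes of 0.06 (SE 0.09) for PF in WT, 0.10 (SE 0.09) for PF in AMPKβ1-/- and −0.08 (SE 0.09) between genotypes. The sign of the last value was positive, at 0.13, with library size alone in place of TMM. *Abcg1* was the only one of the 10 genes not called between the genotypes.

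*Abca5*, on chromosome 11 from 110269369 to 110337716, encodes an ABC transporter of lysosomes and late endosomes. Its counts were low, at 5, 13 and 1 in WT vehicle libraries and 25, 19 and 38 in WT PF libraries. AMPKβ1-/- libraries had 30, 43 and 34 counts with vehicle and 45, 31 and 41 with PF. In CPM the WT vehicle libraries had 0.534, 1.20 and 0.0995, and the lowest of the other libraries had 1.78. A floor of 3 counts corresponds to 0.196 to 0.321 CPM depending on the library, so WT vehicle library 3 was below it. *Abca5* rose with PF in WT cells, with a log2 difference of 1.86 (SE 0.46, adjusted p = 0.0175), and AMPKβ1-/- vehicle cells were above WT vehicle cells by 2.25 (SE 0.44, adjusted p = 0.000588). In AMPKβ1-/- cells the log2 fold change with PF was 0.16 (SE 0.33, adjusted p = 0.98), and the responses differed by 1.71 (SE 0.57, adjusted p = 0.20). Both called values rest on the same 3 WT vehicle libraries. Without WT vehicle library 2 they were 2.85 and 3.24, and the call with PF was lost without WT vehicle library 1 (adjusted p = 0.0632), WT vehicle library 3 (adjusted p = 0.0591) or WT PF library 3 (adjusted p = 0.0839).

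*Apoe*, on chromosome 7 from 19696109 to 19699188, encodes the apolipoprotein that macrophages secrete as an acceptor of their own cholesterol. WT vehicle libraries had 5404, 5304 and 4905 CPM and WT PF libraries 4841, 4247 and 3873 CPM. AMPKβ1-/- libraries had 4720, 4103 and 4380 CPM with vehicle and 4495, 4389 and 4225 CPM with PF. The WT vehicle libraries were highest, by a narrow gap of WT vehicle library 3 to WT PF library 1. *Apoe* fell by 0.27 with PF in WT cells (log2, SE 0.09, adjusted p = 0.0483). AMPKβ1-/- vehicle cells differed from WT vehicle cells by −0.24 on the same scale (SE 0.09, adjusted p = 0.026), and the log2 fold change with PF in AMPKβ1-/- cells was −0.01 (SE 0.09, adjusted p = 0.99). The response to PF differed between genotypes by −0.26 (SE 0.12, adjusted p = 0.36). The call with PF was lost in 15 of 20 settings, among them leaving out any WT library other than WT PF library 1 (adjusted p from 0.0638 to 0.231). The call between genotypes was lost without WT vehicle library 1 (adjusted p = 0.0715), WT vehicle library 2 (0.0635), AMPKβ1-/- vehicle library 2 (0.121) or AMPKβ1-/- vehicle library 3 (0.0663).

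*Npc2*, on chromosome 12 from 84754562 to 84773152, encodes the soluble lysosomal protein that hands cholesterol to NPC1. WT libraries had 2719, 2504 and 2270 CPM with vehicle and 2679, 2553 and 2405 CPM with PF. AMPKβ1-/- libraries had 1814, 1763 and 1859 CPM with vehicle and 1743, 1798 and 1620 CPM with PF. All WT libraries were above all AMPKβ1-/- libraries, and PF and vehicle overlapped within each genotype. With vehicle the log2 difference between the genotypes was −0.46 (SE 0.08, adjusted p = 0.000255). The log2 fold change with PF was 0.03 in WT cells (SE 0.08, adjusted p = 0.82) and −0.07 in AMPKβ1-/- cells (SE 0.08, adjusted p = 0.98).

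*Npc1*, on chromosome 18 from 12189692 to 12236400, encodes the lysosomal membrane protein that exports cholesterol. Its means were 489 ± 48.1 CPM in WT vehicle, 509.5 ± 4.58 in WT PF, 425 ± 38.9 in AMPKβ1-/- vehicle and 396 ± 16.8 in AMPKβ1-/- PF cells (SD, n = 3). The vehicle libraries of the genotypes overlapped, since WT vehicle library 2 (435 CPM) was below AMPKβ1-/- vehicle library 1 (469 CPM). With vehicle, *Npc1* was lower in AMPKβ1-/- cells, at −0.20 on the log2 scale (SE 0.08, adjusted p = 0.0486). This call sat near the threshold. It was lost without any one of 9 libraries, with adjusted p from 0.0544 to 0.191, and the sign turned to 0.01 with library size alone. *Npc1* shares 511 exonic bases with *Rmc1* and 90 with *Gm15956*, both on the opposite strand. The library kit keeps the strand, but the strand setting of the quantification was not given in the sources used here. The log2 fold change with PF was 0.06 in WT cells (SE 0.08, adjusted p = 0.63) and −0.10 in AMPKβ1-/- cells (SE 0.08, adjusted p = 0.98).

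*Lpcat3*, on chromosome 6 from 124663027 to 124704418, encodes an enzyme that places polyunsaturated fatty acids into membrane phospholipids and is an LXR target. WT vehicle libraries had 84.6, 73.2 and 84.0 CPM and AMPKβ1-/- vehicle libraries 67.0, 59.9 and 63.8 CPM, with no overlap. The log2 difference between these groups was −0.34 (SE 0.08, adjusted p = 0.00244). Means with PF were 74.0 ± 3.05 CPM in WT and 66.4 ± 2.26 CPM in AMPKβ1-/- cells (SD, n = 3). PF gave log2 fold changes of −0.12 in WT (SE 0.08, adjusted p = 0.29) and 0.06 in AMPKβ1-/- cells (SE 0.08, adjusted p = 0.98). *Lpcat3* shares 334 exonic bases with *Emg1* on the opposite strand.

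*Nceh1*, on chromosome 3 from 27182965 to 27284608, encodes a hydrolase that frees cholesterol from its esters in macrophages, and its promoter is the second of those printed above. WT vehicle libraries had 196, 241 and 208 CPM and WT PF libraries 307, 327 and 395 CPM. AMPKβ1-/- libraries had 258, 317 and 329 CPM with vehicle and 341, 301 and 328 CPM with PF. The WT vehicle libraries were the lowest of the 12, and the 3 other groups overlapped. *Nceh1* rose with PF in WT cells, by 0.67 on the log2 scale (SE 0.11, adjusted p = 0.00259), which is 1.59-fold. The log2 fold change with PF in AMPKβ1-/- cells was 0.10 (SE 0.11, adjusted p = 0.98), and the difference between the responses was 0.57 (SE 0.16, adjusted p = 0.14). Without WT PF library 1 that difference had an adjusted p of 0.044, within 0.0339 to 0.337 over all alternatives. AMPKβ1-/- vehicle cells were above WT vehicle cells by 0.48 (SE 0.11, adjusted p = 0.00196).

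AMPKβ1-/- and WT cells were compared with vehicle to describe the genes in the absence of the drug. The genotypes came from different mice, and the labels do not describe donors or cultures. Differences between genotypes therefore cannot be told apart from differences between donors or cultures. *Abca1*, *Abca5* and *Nceh1* were higher in AMPKβ1-/- cells and *Nr1h2*, *Nr1h3*, *Apoe*, *Npc1*, *Npc2* and *Lpcat3* lower, which is 9 of 10 genes at an adjusted p below 0.05. The share over all tested genes was 59.7%, with 29.7% higher and 30% lower. The median log2 fold change was −0.22 for the 10 genes and −0.03 for all tested genes. Libraries did not overlap for 8 of the 10 genes and for 62.9% of all tested genes. With PF the genotypes did not overlap for 5 of the 10 genes (*Abca1* above, *Nr1h2*, *Npc1*, *Npc2* and *Lpcat3* below in AMPKβ1-/- cells) and for 59.9% of all tested genes. A log2 difference beyond 0.8 with vehicle was called for *Abca1* and *Abca5*, and for 17.8% of all genes. The comparisons of PF in WT cells and of the genotypes share the WT vehicle libraries, so their values are given side by side only. Of 10 macrophage markers 3 were higher and 5 lower in AMPKβ1-/- vehicle cells, among them *Msr1* (1.23, adjusted p = 0.000227) and *Cd68* (−0.72, adjusted p = 2.7e-05), while their summed level overlapped at 27680 to 30760 CPM in WT and 26630 to 30120 CPM in AMPKβ1-/- libraries. Not all of these calls held with the trend in GC content and length removed, as given below. Of the markers of other cell types, those called were *Cd4* (−1.15, adjusted p = 1.9e-05) and the osteoclast markers *Ctsk* (−0.72, adjusted p = 0.00125) and *Acp5* (−0.95, adjusted p = 0.00172), and the 5 osteoclast markers together were at 115 to 128 CPM in WT vehicle and 98.1 to 104 CPM in AMPKβ1-/- vehicle libraries. Most of this sum was *Nfatc1*, at means of 95.6 and 85.6 CPM, which was not called (−0.16, adjusted p = 0.10). Their part in the differences between genotypes was not tested.

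**Figure D2:**
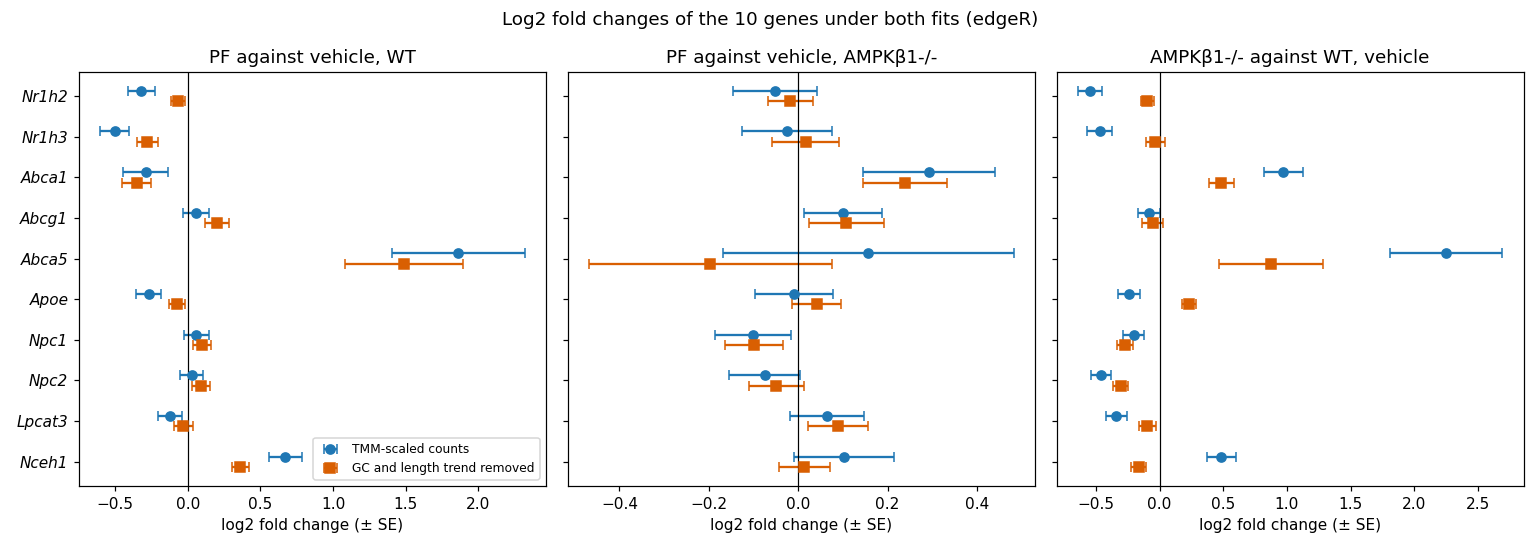
Log2 fold changes of the 10 genes (horizontal axes, ± SE, edgeR) in 3 comparisons, from TMM-scaled counts (circles) and after the trend in GC content and length was removed (squares). Horizontal scales differ between panels. *Abca1* stayed above 0 between the genotypes under both fits, at 0.97 and 0.48, while *Apoe* and *Nceh1* changed sign there.

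The fold changes followed the GC content of transcripts across all genes. Spearman's correlation of GC content with the log2 fold change across genes, which are not independent replicates, was −0.71 for PF in WT cells and −0.76 between genotypes with vehicle. The longest transcripts of *Abca5* and *Nceh1* had 39.8% and 44.5% GC and those of *Apoe* and *Nr1h2* 59.5% and 60.6%, around a median of 50.1% for the tested genes. For each library, the log2 CPM of a gene was taken relative to that gene's mean over the 12 libraries. The slope of these deviations over 10 points of GC ran from 0.36 to 0.72 in WT vehicle and from −0.05 to 0.37 in WT PF libraries. It ran from −0.36 to −0.10 in AMPKβ1-/- vehicle and from −0.51 to −0.33 in AMPKβ1-/- PF libraries. The signs are thus relative to the mean of all libraries. With the trend in GC content and length removed from each library, 4 of the 10 genes were called for PF in WT cells, against 7.32% of all genes. These were *Nceh1* (0.36, SE 0.06, adjusted p = 0.000587), *Nr1h3* (−0.28, SE 0.07, adjusted p = 0.0282), *Abca5* (1.49, SE 0.41, adjusted p = 0.0312) and *Abca1* (−0.35, SE 0.10, adjusted p = 0.0471). *Nr1h2* and *Apoe* were then at −0.07 each and lost their calls (adjusted p = 0.48 and 0.49).

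In AMPKβ1-/- cells the removal left 0 of the 10 genes called for PF, against 0.0277% of all genes. The difference between the responses was then called for *Nceh1* (0.35, SE 0.08, adjusted p = 0.0339) and *Abca1* (−0.59, SE 0.14, adjusted p = 0.042), against 1.7% of all genes. Between genotypes with vehicle 5 of the 10 genes were called, against 34.5% of all genes. *Abca1* remained higher in AMPKβ1-/- cells (0.48, SE 0.10, adjusted p = 0.00142), and *Npc2* (−0.31, SE 0.06, adjusted p = 0.000951) and *Npc1* (−0.27, SE 0.07, adjusted p = 0.00371) lower. *Apoe* turned to 0.23 (SE 0.06, adjusted p = 0.00394) and *Nceh1* to −0.16 (SE 0.06, adjusted p = 0.034). *Nr1h2*, *Nr1h3*, *Abca5* and *Lpcat3* were not called, at −0.10, −0.04, 0.87 and −0.10. Of the 10 macrophage markers 0 were called higher and 2 lower between genotypes in this fit. These were *Cd68* (−0.40, adjusted p = 2.9e-05) and *Mrc1* (−0.70, adjusted p = 5.6e-06). *Mrc1* was not called before and is named after its value was seen. *Msr1* was then at −0.02 (adjusted p = 0.87). Whether the GC trend is technical was not tested.

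**Figure D3:**
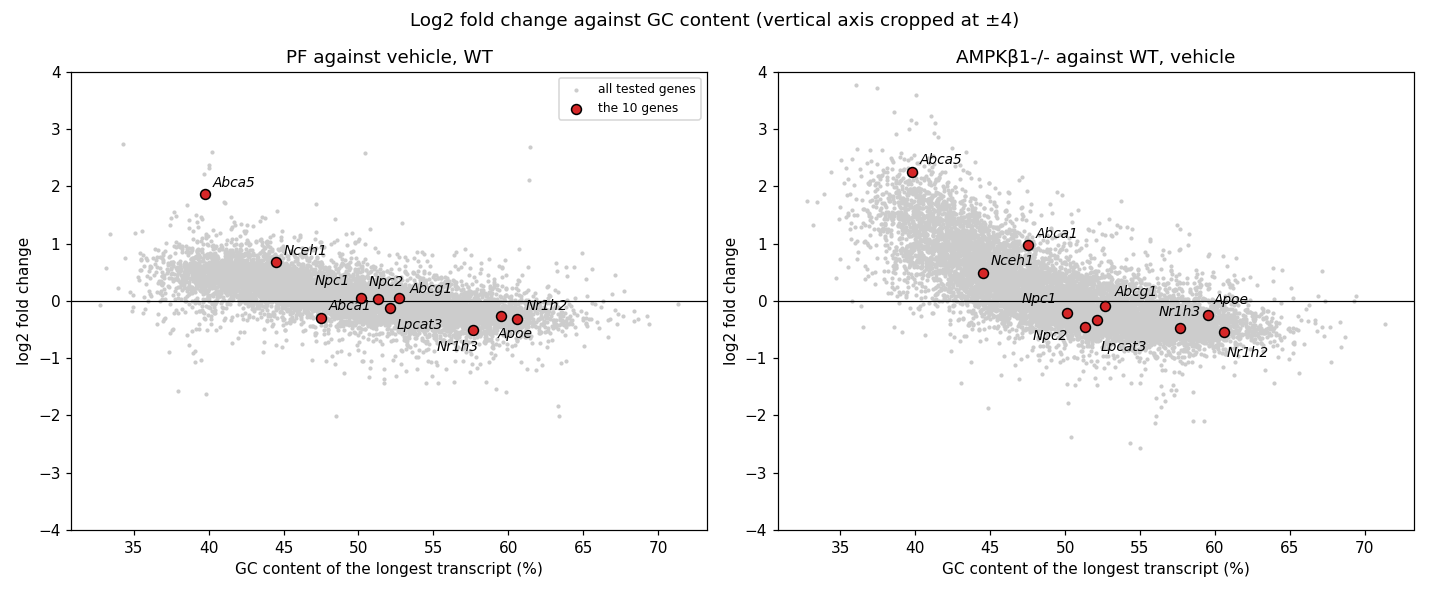
Log2 fold change (vertical axis, cropped at ±4) against the GC content of the longest transcript (horizontal axis, %) for the tested genes with known GC content (grey) and the 10 genes (red), for PF in WT cells and for the genotypes with vehicle. *Abca5*, at 39.8% GC, lies above 0 and *Nr1h2*, at 60.6% GC, below 0 in both panels.

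Of 14 other LXR targets tested, 2 rose and 2 fell with PF in WT cells, beside 6.99% and 8.95% of all tested genes, and 10 were not called. Their median log2 fold change was 0.05, against 0.0048 for all tested genes. *Scd2*, a fatty acid desaturase, went from 48.1, 51.3 and 54.6 CPM with vehicle to 81.0, 88.7 and 88.2 CPM with PF (log2 fold change 0.74, SE 0.09, adjusted p = 0.000454). Its AMPKβ1-/- libraries lay between 28.1 and 34.9 CPM, and its responses differed by 0.90 (SE 0.13, adjusted p = 0.00811). *Smpdl3a*, a phosphodiesterase, rose by 0.45 on the log2 scale, and *Pltp*, the phospholipid transfer protein, and *Apoc2*, an activator of lipoprotein lipase, had log2 fold changes of −0.44 and −0.36. With the GC trend removed, *Smpdl3a* was no longer called (adjusted p = 0.188), and *Fasn*, the fatty acid synthase, named after its value was seen, was called higher (0.37, adjusted p = 0.00205). Of 13 partners and cofactors of LXR, 0 rose and 3 fell. Among them were *Rxrb*, a partner receptor, at −0.37, and *Gps2*, a subunit of a corepressor complex, at −0.35, and neither of these calls held with the GC trend removed (adjusted p = 0.479 and 0.0562). Of 3 tested enzymes that make or remove sterol ligands, *Cyp27a1*, a sterol 27-hydroxylase, fell by 0.52 (SE 0.10, adjusted p = 0.0066), and it fell by 0.41 with the GC trend removed (adjusted p = 0.00395).

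A list for sterol and lipid export, beside the 3 exporters above, had 8 tested genes, among them *Scarb1* and *Cav1*, which are not ABC transporters. With PF in WT cells 0 of the 8 rose and 4 fell, against 6.99% and 8.95% of all tested genes. Their median log2 fold change was −0.30, against 0.0048. The 4 were *Abca7* at −0.62, *Abca2* at −0.45, *Abca3* at −0.39 and *Scarb1*, the HDL receptor, at −0.27. With the GC trend removed *Abca7* was still called (−0.30, adjusted p = 0.0224), while *Abca2*, *Abca3* and *Scarb1* were not (adjusted p from 0.0973 to 0.651). In that fit 3 of the 8 were called lower, where 7.32% of all genes were called in either direction. Beside *Abca7* these were *Abca9* (−0.63, adjusted p = 0.00304) and *Cav1* (−0.30, adjusted p = 0.0389), which were not called before and are named after their values were seen. Of 15 genes for transport of cholesterol inside the cell 4 rose and 1 fell. *Stard4*, a soluble sterol carrier, rose by 0.81, *Osbpl8* by 0.77 and *Osbpl1a* by 0.55, both of the oxysterol-binding protein family, and *Gramd1a*, a sterol transfer protein of the endoplasmic reticulum, fell by 0.36. *Osbpl8* had a log2 fold change with PF of 0.69 in AMPKβ1-/- cells (SE 0.18, adjusted p = 0.27), where PF libraries were all above vehicle libraries, and its responses differed by 0.08 (SE 0.26, adjusted p = 0.90). With the GC trend removed 2 of the 15 were called higher, *Stard4* (0.46, adjusted p = 0.0303) and *Osbpl8* (0.39, adjusted p = 0.0148), and 1 lower, *Scarb2* (−0.29, adjusted p = 0.0119), which was not called before and is named after its value was seen. The share over all genes in that fit was 7.32% in either direction. Of 5 genes for ester storage, *Soat1*, which esterifies cholesterol, rose by 0.51, and the lipases *Lipe* and *Pnpla2* fell by 0.41 and 0.34. None of these 3 was called with the GC trend removed (adjusted p from 0.072 to 0.325).

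Targets of SREBP2, the factor that raises cholesterol synthesis when sterol is low, were set beside the LXR genes. With PF in WT cells 8 of 10 rose and 0 fell, against 6.99% and 8.95% of all tested genes, with a median log2 fold change of 0.57 against 0.0048. *Insig1* rose by 0.99 (SE 0.12, adjusted p = 0.000454), *Cyp51* by 0.77 (SE 0.08, adjusted p = 0.000298) and *Sqle* by 0.54 (SE 0.09, adjusted p = 0.00193). The responses differed between genotypes for *Insig1* (1.07, adjusted p = 0.0133) and *Cyp51* (0.84, adjusted p = 0.00811). With the GC trend removed, 9 rose and 0 fell in WT cells, where 7.32% of all genes were called in either direction. In AMPKβ1-/- cells 0 genes of any of these lists were called with PF. Over all tested genes 0.0554% were called there, so 0 is near that share. Macrophage markers were the reference for cell type, and 4 of 10, *Csf1r*, *Cd14*, *Itgam* and *Spi1*, fell with PF in WT cells, against 8.95% of all tested genes. The summed level of the 10 was 25970 to 28600 CPM with PF in WT cells and 27680 to 30760 CPM with vehicle. With the GC trend removed 4 of the 10 were called lower. *Spi1* was then not called (−0.14, adjusted p = 0.106). *Adgre1*, named after its value was seen, was called (−0.30, adjusted p = 0.0072). The 5 osteoclast markers summed to 102 to 110 CPM with PF in WT cells, against 115 to 128 CPM with vehicle. Of them *Nfatc1* was called lower (−0.27, adjusted p = 0.0385), and not with the GC trend removed (adjusted p = 0.384). The part of these markers in the changes above was not tested.

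The genes whose log2 CPM over the 12 libraries was most like that of *Abca1* were *Fyb*, *Adap2*, *Ptger4*, *Zfp36l1* and *Zfp738*, with Pearson's r from 0.988 to 0.990. The libraries share the genotype difference, so this is a description.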

How the data were processed

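RNA of BMDMs was sequenced in 12 libraries of 4 groups. The authors used Trim Galore for trimming and Salmon for quantification, and the deposited table holds estimated counts per gene as whole numbers, not normalized. The genome build, the version of Salmon and its options were not given in the sources used here. Group came from the column names, which number the libraries 1 to 3 but do not link to single samples of the labels, so the numbers were not read as pairs.

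Counts were tested in R 4.3.3 with edgeR 4.0.16 (TMM, filterByExpr by group, robust quasi-likelihood fit of 4 group means to all 12 libraries, Benjamini-Hochberg over 10822 genes), and the code was tested on simulated data. SE are approximate, since they were derived from F statistics. Means are ± SD of CPM. Alternatives used DESeq2 1.42.0, limma 3.58.1 (voom), other scalings and filters, the libraries of a contrast alone, each library left out, and an offset for GC content and length (natural splines, 5 df, longest transcript of GENCODE M21 on GRCm38, GC known for 10786 tested genes). Library totals limit precision, and the floor of 3 counts covers counting error only. GENCODE held 12703 of the table's genes under the same symbol and 194 under an older one, and 63 were unmatched.

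The 10 genes and the lists of LXR targets, partners, ligand enzymes, transport, ester storage, exporters, SREBP2 targets and cell markers were chosen with earlier results of these data known. From a list, genes called in WT cells or in the difference of responses were named, at most 4 with the smallest p, and a few single results under this rule are left out. Protein sequences were not used here.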

Additional observations from a re-analysis of the deposited data

How the results depend on the processing

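Of 784 alternative values for the 10 genes in the 4 comparisons, 706 kept their direction and side of the threshold, 51 lost a call, 5 gained one and 22 changed sign. The number of genes called for PF in WT cells was 3 with library size alone in place of TMM, 2 with the libraries of that comparison alone and 1 when a log2 fold change beyond 0.8 was also required, and 2 to 5 with 1 library left out. The difference between the responses called 1 gene with DESeq2, 2 with the GC and length trend removed, and 0 to 1 with 1 library left out. Between genotypes with vehicle, 5 genes were called with the trend removed and 2 with the fold threshold, against 9. In these counts the cause of each move, beyond the fewer samples or stricter rule, was not tested.

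*Apoe* with PF in AMPKβ1-/- cells (−0.01) was 0.0017 with DESeq2's size factors in edgeR and with DESeq2, 0.0091 with library size alone and 0.041 with the trend removed. With library size alone, the median of all genes between genotypes moved from −0.026 to 0.18, and *Abcg1* was at 0.13 and *Npc1* at 0.0061 there, both below that median, while *Abcg1* was at 0.014 for the difference between responses. With the trend removed, that difference was 0.095 for *Abcg1*, the response in AMPKβ1-/- cells was 0.017 for *Nr1h3* and −0.20 for *Abca5*, and the genotypes differed by 0.23 for *Apoe* and −0.16 for *Nceh1*. Leaving out 1 library gave −0.028 to 0.11 for *Abcg1*, −0.019 to 0.12 for *Npc1* and −0.037 to 0.093 for *Npc2* with PF in WT cells, −0.099 to 0.0083 for *Nr1h2* and −0.058 to 0.043 for *Apoe* with PF in AMPKβ1-/- cells, and −0.13 to 0.019 for *Abcg1* in the difference between responses.

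*Abca5* had no value with at least 10 counts in every library and no adjusted p from DESeq2 for PF in WT cells or for the difference between responses, and that difference had no value from the libraries of 1 comparison. The WT vehicle libraries held 1 to 13 counts of *Abca5*. No fit with the library number as a block was made, since the numbers 1 to 3 stand in the count columns only and no label says that they mark a shared mouse, culture or day.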
